A study of Homo sapiens with 6 samples.

Results

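The 173 microRNA genes described here were those of 18417 single-symbol genes on the array whose symbol names a microRNA. They were taken from the platform's probe table, with host-gene symbols left out, and each was read by 1 probe set. RNA recovered with an antibody against AGO2 was hybridised from PC3 cells, an androgen independent prostate cancer line. One group of 3 arrays came from cells transfected with miR-205 and the other group of 3 arrays from cells transfected with a negative control mimic. All 6 samples were AGO2 immunoprecipitates taken with the rat antibody 11A9, and the series design calls the 3 samples of a group biological triplicates. PC3 is a single cancer line, and a mimic is a synthetic duplex brought in from outside, so the groups model a raised dose of 1 microRNA in 1 line. Nothing says how the cultures were split, so p-values measure the spread between these samples.

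A microRNA gene is transcribed as a long primary transcript, from which the nuclear enzyme DROSHA, with DGCR8, cuts a short hairpin. Exportin-5 carries the hairpin to the cytoplasm, DICER1 trims it to a duplex, and 1 strand is loaded into an Argonaute protein such as AGO2. The loaded strand finds target transcripts mainly through its seed, bases 2 to 8 from its 5′ end. Several families share a seed and are made from hairpins at several places in the genome. In prostate epithelium miR-205 is known for keeping cells epithelial, and its loss has been reported in prostate tumours.

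The probe sets carry RefSeq accessions of microRNA gene records, so the primary transcript, the hairpin and the mature strand cannot be told apart in their signal. Altered binding to AGO2 and altered RNA abundance cannot be told apart either, since input RNA was not analysed here. The same holds for fewer cells and less RNA per cell. MIR205 has no single-symbol probe set among the genes measured here. A probe set shared by MIR205HG and MIR205 read 5.32, 5.33 and 5.49 (log2 intensity) with miR-205 and 5.25, 5.26 and 5.38 with the control. Its groups overlapped, and it did not pass in a limma fit over all probe sets (log2 change 0.09, adjusted p = 0.51). Hairpins or mature sequences of 155 of the 173 genes were matched in RefSeq on GRCh38.p14, and coordinates below are those of that record.

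The mature sequences that carry the results are given 5′ to 3′ with the seed in capitals. The first is the transfected microRNA, and the next 3 come from the MIR23A, MIR27A and MIR24-2 cluster. They are followed by miR-31, whose gene had the largest rise of the 173, and by the seed-sharing pair miR-221 and miR-222.
miR-205-5p: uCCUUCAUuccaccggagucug
miR-23a-3p: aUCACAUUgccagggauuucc
miR-27a-3p: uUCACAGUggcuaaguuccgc
miR-24-3p: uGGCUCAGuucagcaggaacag
miR-31-5p: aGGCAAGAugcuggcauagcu
miR-221-3p: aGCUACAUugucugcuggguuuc
miR-222-3p: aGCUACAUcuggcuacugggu

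The let-7 strands of the 5 family genes that rose, and that of MIRLET7I, share the seed GAGGUAG and differ outside it or in the first base. They are shown because the family held 5 of the 14 genes that rose.
let-7a-5p: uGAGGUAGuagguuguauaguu
let-7d-5p: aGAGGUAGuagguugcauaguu
let-7e-5p: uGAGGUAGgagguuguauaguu
let-7f-5p: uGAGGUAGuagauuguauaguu
let-7g-5p: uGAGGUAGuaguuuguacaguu
let-7i-5p: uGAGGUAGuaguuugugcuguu

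The hairpins of the chromosome 19 cluster and of MIR31 are given with the annotated mature strands in capitals, since the probe sets are assigned to these records. The 3 hairpins of the cluster lie within 373 bases of each other on the minus strand, at chr19:13836587-13836659 for MIR23A, chr19:13836440-13836517 for MIR27A and chr19:13836287-13836359 for MIR24-2, inside the non-coding gene MIR23AHG. MIR31 lies on the minus strand at chr9:21512115-21512185, inside the non-coding gene MIR31HG.
MIR23A: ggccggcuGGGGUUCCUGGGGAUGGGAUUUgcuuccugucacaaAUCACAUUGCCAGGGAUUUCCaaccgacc
MIR27A: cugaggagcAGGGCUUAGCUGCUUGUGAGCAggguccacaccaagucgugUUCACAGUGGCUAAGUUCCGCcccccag
MIR24-2: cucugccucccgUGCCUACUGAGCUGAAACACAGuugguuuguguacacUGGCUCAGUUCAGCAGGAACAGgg
MIR31: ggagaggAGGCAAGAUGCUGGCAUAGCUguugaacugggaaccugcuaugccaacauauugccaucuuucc

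Array medians over all probe sets lay between 6.82 and 6.86 (log2 intensity), and correlations between arrays between 0.991 and 0.997. The epithelial and PC3 markers KRT8, KRT18, VIM, EPCAM and CDH1 were all above background, from 7.24 for CDH1 to 12.6 for VIM. These means cover both groups, and all 5 markers passed an adjusted p of 0.05 in limma between the groups. With miR-205 CDH1 rose by 1.91 (log2) from a control mean of 6.28. EPCAM rose by 2.29, KRT8 by 0.89 and KRT18 by 0.55, and VIM changed by -0.26. Background was set at 6.04, the 95th percentile of the mean signals of 341 olfactory receptor genes, whose median was 4.60. Whether some of these receptors are expressed in PC3 cells was not tested. KLK3, known to be low in PC3, was at 6.07, just above background. Of 3 leukocyte markers CD14 (6.33) was above background, and PTPRC (3.61) and CD3E (5.26) were below it. Of 4 fibroblast markers COL1A1 (8.99), COL1A2 (6.64) and PDGFRB (6.32) were above it and DCN (3.09) was below it. Of 3 endothelial markers PECAM1 (6.80) was above it, and CDH5 (5.70) and VWF (5.78) were below it. Over all probe sets, negative control replicate 2 correlated with control replicates 1 and 3 at 0.9949 and 0.9948. Control replicates 1 and 3 correlated with each other at 0.9966. With the miR-205 arrays, control replicate 2 correlated at 0.9931 to 0.9937 and the other controls at 0.9909 to 0.9920. Negative control replicate 2 also stood apart from the other control arrays for some microRNA genes, so results that rest on it are given with and without it.

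With miR-205, 14 microRNA genes were higher and 5 were lower, and 154 did not pass an adjusted p of 0.05 in limma (Benjamini-Hochberg over 18417 genes). The rises were led by MIR31, MIRLET7A2 and the MIR23A cluster, and the falls were small, none above 0.41 on the log2 scale. The 19 genes called make 11.0% of the members, against 26.6% of all genes. Split by direction, 8.09% of the members were higher, against 12.6% of all genes, and 2.89% were lower, against 14.0%. The median log2 change was -0.01 over the members and -0.02 over all genes, and the median absolute change was 0.09 against 0.12. The groups did not overlap for 35 members, which is 20.2% of the members against 42.2% of all genes. Of these 35, 18 were higher and 17 lower, against 19.9% and 22.2% of all genes in the same directions. Without negative control replicate 2, 17 microRNA genes were higher and 12 lower, against 30.1% of all genes called. With any 1 other array left out, 8 to 11 were higher and 0 to 3 lower, against 18.3% to 20.7% of all genes called. The higher count was 8 without miR-205 replicate 1, and the lower count was 0 without miR-205 replicate 2.

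Most microRNA probe sets were dim. Of the 173, 52 had a mean above the background level and 121 did not, and the means ran from 2.49 to 10.36 with a median of 4.64. Above background, 6 members were higher and 1 was lower, which is 13.5% called against 33.8% of all genes in that range. By direction these were 11.5% of members against 15.8% for higher and 1.92% against 18.0% for lower. At or below background, 8 were higher and 4 were lower, which is 9.92% called against 6.34% of dim genes. By direction these were 6.61% of members against 3.46% for higher and 3.31% against 2.88% for lower. The sizes of changes in the dim range are less certain than those above it. Small nucleolar and Cajal body RNA genes, which are also short non-coding RNAs, had 50 higher and 7 lower of 192 (29.7% called), with a median change of 0.18, and the difference from the microRNA genes was not tested.

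**Figure D1:**
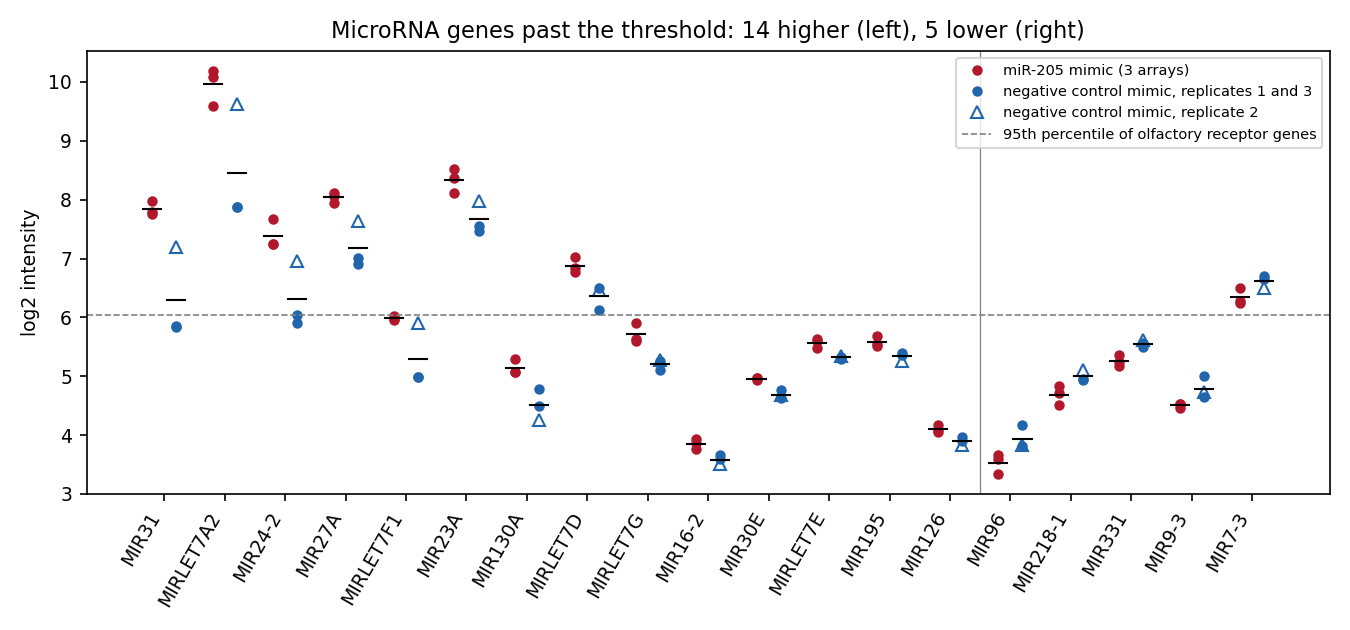
Log2 intensity (vertical axis) in each of the 6 arrays for the 14 microRNA genes that were higher and the 5 that were lower with miR-205 (limma, adjusted p under 0.05). Red points are the 3 miR-205 arrays, blue points control replicates 1 and 3, open triangles control replicate 2, and short black lines group means. For MIR31, MIRLET7A2, MIR24-2, MIR27A, MIRLET7F1 and MIR23A the triangle lies above both other control arrays, and the dashed line marks the background level of 6.04.

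The microRNA genes of the chromosome 19 cluster rose together. miR-23a, miR-27a and miR-24 are made from 1 primary transcript and are known for roles in proliferation, apoptosis and muscle and blood cell differentiation. MIR24-2 read 7.24, 7.67 and 7.25 (log2 intensity) in the miR-205 arrays and 5.91, 6.96 and 6.05 in the control arrays. Every miR-205 array was above every control array, and control replicate 2 was the highest of the controls. The log2 change was 1.08 ± 0.25 (SE, n = 3 per group, limma adjusted p = 0.0127).

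MIR27A read 7.94, 8.12 and 8.06 with miR-205 and 6.91, 7.64 and 7.01 with the control. Both groups were separate, and control replicate 2 again stood above the other control arrays. Its log2 change was 0.86 ± 0.17 (SE, limma adjusted p = 0.0061). MIR23A read 8.36, 8.12 and 8.53 against 7.55, 7.98 and 7.46, with no overlap and the smallest gap between miR-205 replicate 2 and control replicate 2. It changed by 0.67 ± 0.15 (SE, limma adjusted p = 0.00935).

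Without control replicate 2 the log2 changes of the cluster were 1.41 for MIR24-2, 1.08 for MIR27A and 0.83 for MIR23A, with limma adjusted p of 0.000148, 4.69e-05 and 0.000941. The calls of MIR27A and MIR23A held under every alternative run. The MIR24-2 call was lost without control replicate 3 (0.96, adjusted p = 0.0569) and with a trended robust variance (adjusted p = 0.061). miR-24-3p is also made from a second hairpin, and a probe set that reads the shared strand would not separate the copies. The probe set shared by MIR24-1 and AOPEP read only 3.20 to 3.51 over the 6 arrays. It changed by 0.16 and did not pass (limma over all probe sets, adjusted p = 0.174).

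MIR31 had the largest rise of the 173 genes. miR-31 is known as a regulator of invasion and of RhoA signalling, with roles that differ between cancers. Its probe set read 7.75, 7.79 and 7.99 (log2 intensity) with miR-205 and 5.84, 7.19 and 5.85 with the control. The miR-205 arrays were all above the control arrays, with control replicate 2 between the other controls and the miR-205 arrays. The log2 change was 1.55 ± 0.31 (SE, n = 3 per group, limma adjusted p = 0.00696). Without control replicate 2 it was 2.00 ± 0.08 (SE, adjusted p = 3.64e-06), and with a trended robust variance over all arrays the call was lost (adjusted p = 0.0603).

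The host transcript moved the other way. MIR31HG, the long non-coding RNA whose span holds MIR31 on the same strand, read 11.21, 11.14 and 11.19 with miR-205 and 11.73, 11.79 and 11.76 with the control. All miR-205 arrays were lower, and control replicate 2 lay close to the other control arrays. Its log2 change was -0.58 ± 0.06 (SE, limma adjusted p = 0.000205). Among the 155 genes with a hairpin sequence, 8 called microRNA genes had a measured host. MIR31 was the only one of these whose host was called in the opposite direction.

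**Figure D2:**
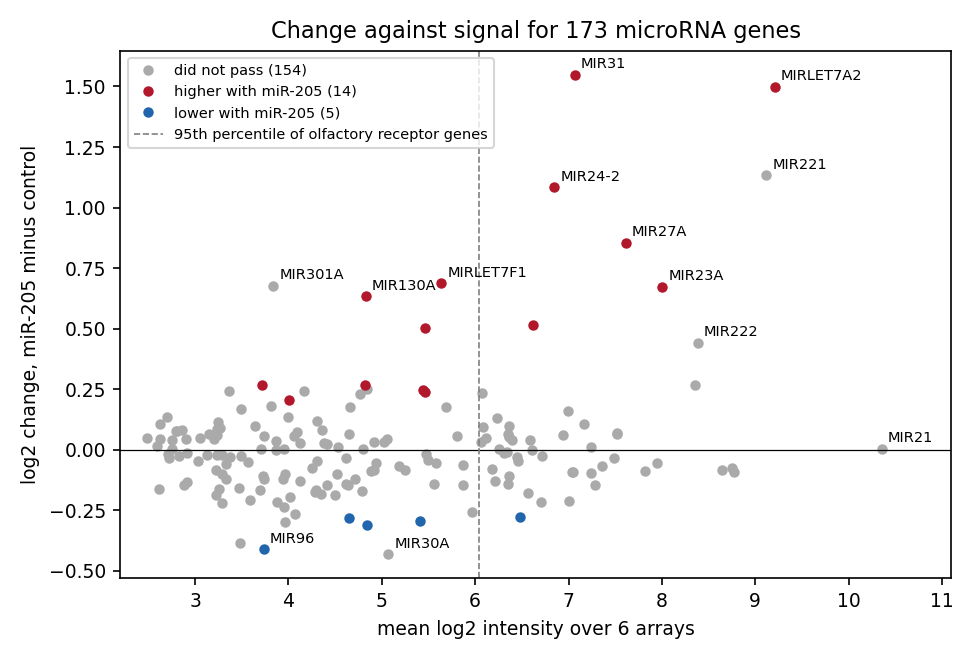
Log2 change, miR-205 minus control (vertical axis), against the mean log2 intensity over the 6 arrays (horizontal axis) for the 173 microRNA genes. Red points were higher and blue points lower with miR-205, grey points did not pass, and the dashed line is the background level of 6.04. The changes above 1 on the log2 scale belong to MIR31, MIRLET7A2, MIR221 and MIR24-2, and MIR221 did not pass.

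The let-7 family, known as repressors of RAS, HMGA2 and MYC and of early developmental programmes, had 5 of 10 measured genes higher and 0 lower. Of all genes, 12.6% were higher and 14.0% lower. The median log2 change of the 10 was 0.26. Of the 12 family genes listed, MIRLET7B and MIRLET7A3 were read by probe sets shared with MIRLET7BHG. Their log2 changes were -0.25 and -0.09, and neither passed in a limma fit over all probe sets (adjusted p = 0.077 and 0.65). The groups did not overlap for the MIRLET7B probe set and overlapped for that of MIRLET7A3. The seed-sharing strands printed above come from separate loci. Whether a probe set also reads copies with the same or nearly the same mature sequence was not tested. The probe sets of MIRLET7A1 and MIRLET7A2, which make the same strand, differed in mean signal (4.12 and 9.21). MIRLET7A2, at chr11:122146522-122146593 on the minus strand, read 10.09, 10.19 and 9.60 (log2 intensity) with miR-205 and 7.88, 9.63 and 7.87 with the control. The groups overlapped, since control replicate 2 lay just above miR-205 replicate 3. The log2 change was 1.50 ± 0.42 (SE, n = 3 per group, limma adjusted p = 0.0291).

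Without control replicate 2 MIRLET7A2 changed by 2.08 (adjusted p = 5.82e-05). The call was lost when any 1 of miR-205 replicates 1 and 2 or control replicates 1 and 3 was left out (adjusted p = 0.0848, 0.0898, 0.106 and 0.11). It was also lost with a trended robust variance (adjusted p = 0.157) and in the fit over all probe sets. MIR100, which with MIRLET7A2 spans 5787 bases on the same strand, changed by 0.23 (limma adjusted p = 0.189) and did not pass. MIR125B1, inside the same non-coding gene MIR100HG, had a log2 change of -0.10 and did not pass either. The copy MIRLET7A1 on chromosome 9, which makes the same mature strand, changed by 0.03 and did not pass.

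MIRLET7D and MIRLET7F1 lie with MIRLET7A1 within 2964 bases on chromosome 9. MIRLET7D read 7.03, 6.77 and 6.83 with miR-205 and 6.49, 6.46 and 6.12 with the control, with no overlap. Its log2 change was 0.52 ± 0.11 (SE, limma adjusted p = 0.00894), and the call held under every alternative run. Here the control replicate 2 value was the middle one of its group. MIRLET7F1 read 5.96, 5.97 and 6.03 against 4.99, 5.90 and 4.99, so that control replicate 2 nearly reached the miR-205 arrays. It changed by 0.69 ± 0.21 (SE, limma adjusted p = 0.0418) over all arrays and by 0.99 (adjusted p = 3.05e-05) without control replicate 2. That call was lost when any 1 of the other 5 arrays was left out (adjusted p = 0.0944 to 0.147) and with repeated quantile (0.0535) or cyclic loess normalization (0.0515). It was also lost with a trended robust variance (adjusted p = 0.072) and in the fit over all probe sets.

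MIRLET7G read 5.91, 5.59 and 5.64 with miR-205 and 5.26, 5.27 and 5.11 with the control. Every miR-205 array was above every control array, the controls lay close together, and the call held under every alternative run. Its log2 change was 0.50 ± 0.09 (SE, limma adjusted p = 0.00479), the smallest adjusted p of the 173. MIRLET7E changed by 0.25 (limma adjusted p = 0.0197), a call lost without miR-205 replicate 1 or 3 or without control replicate 1 or 3 (adjusted p = 0.0728, 0.0751, 0.0506 and 0.0596). Its neighbours MIR99B and MIR125A, within 728 bases, changed by 0.07 and 0.05 and did not pass.

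The other family members did not pass. MIRLET7I, a bright probe set, read 8.59, 8.71 and 8.16 with miR-205 and 8.08, 8.56 and 8.03 with the control. The groups overlapped through control replicate 2, and the log2 change was 0.27 (limma adjusted p = 0.295), or 0.44 (adjusted p = 0.0495) without that array. MIRLET7C changed by 0.09, and MIRLET7F2 and MIR98, which lie within 1052 bases on chromosome X, by -0.17 and -0.22. Of the 10 genes, 8 had a positive change and 2 a negative one.

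MIR221 and MIR222 share the seed GCUACAU, lie within 968 bases on chromosome X and are known to repress the cell cycle inhibitor p27 in prostate cancer lines, PC3 among them. MIR221 read 9.85, 9.82 and 9.38 (log2 intensity) with miR-205 and 7.77, 9.66 and 8.21 with the control. Control replicate 2 lay above miR-205 replicate 3, so the groups overlapped. The log2 change of 1.13 ± 0.41 (SE, n = 3 per group) did not pass (limma adjusted p = 0.071), and without control replicate 2 it was 1.69 (adjusted p = 0.000195).

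MIR222 read 8.57, 8.54 and 8.71 with miR-205 and 7.85, 8.60 and 8.04 with the control. Control replicate 2 again lay inside the miR-205 range. The change was 0.44 (limma adjusted p = 0.0847), or 0.66 (adjusted p = 0.000721) without that array. Array weights, which count a divergent array less, gave MIR221 an adjusted p of 0.0137 and MIR222 one of 0.0241. With the replicate number as a block, MIR221 had an adjusted p of 0.036.

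Control replicate 2 lay apart for other microRNA genes too. Among the 14 higher genes, control replicate 2 was above the mean of the other control arrays in 9. It lay more than 50% of the way from that mean to the miR-205 mean in 6. The largest distances from the other control arrays were 1.76 for MIRLET7A2, 1.67 for MIR221, 1.34 for MIR31 and 1.25 for MIR301A on the log2 scale. MIR301A, a relative of MIR130A chosen here after its values were seen, read 4.56, 4.18 and 3.77 with miR-205 and 3.16, 4.33 and 3.00 with the control. The groups overlapped through control replicate 2, and its change was 0.68 (limma adjusted p = 0.167), or 1.09 (adjusted p = 0.00319) without that array. Of the 19 calls, 16 were shared with the fit without control replicate 2, 3 were lost there and 13 other genes passed only there. The 3 lost were MIR126 (adjusted p = 0.0842), MIR195 (0.0735) and MIR218-1 (0.0788). Of the 13 that passed only there, 5 were higher, MIR221, MIR301A, MIR222, MIR186 (0.53, adjusted p = 0.0212) and MIRLET7I. The other 8 were lower, by log2 changes of -0.54 for MIR30A, -0.52 for MIR33A, which lies in the cholesterol regulator gene SREBF2, and -0.22 to -0.36 for MIR103A1, MIR188, MIR299, MIR128-1, MIR26A1 and MIR150. All but MIR150 of these 8 lay below background.

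**Figure D3:**
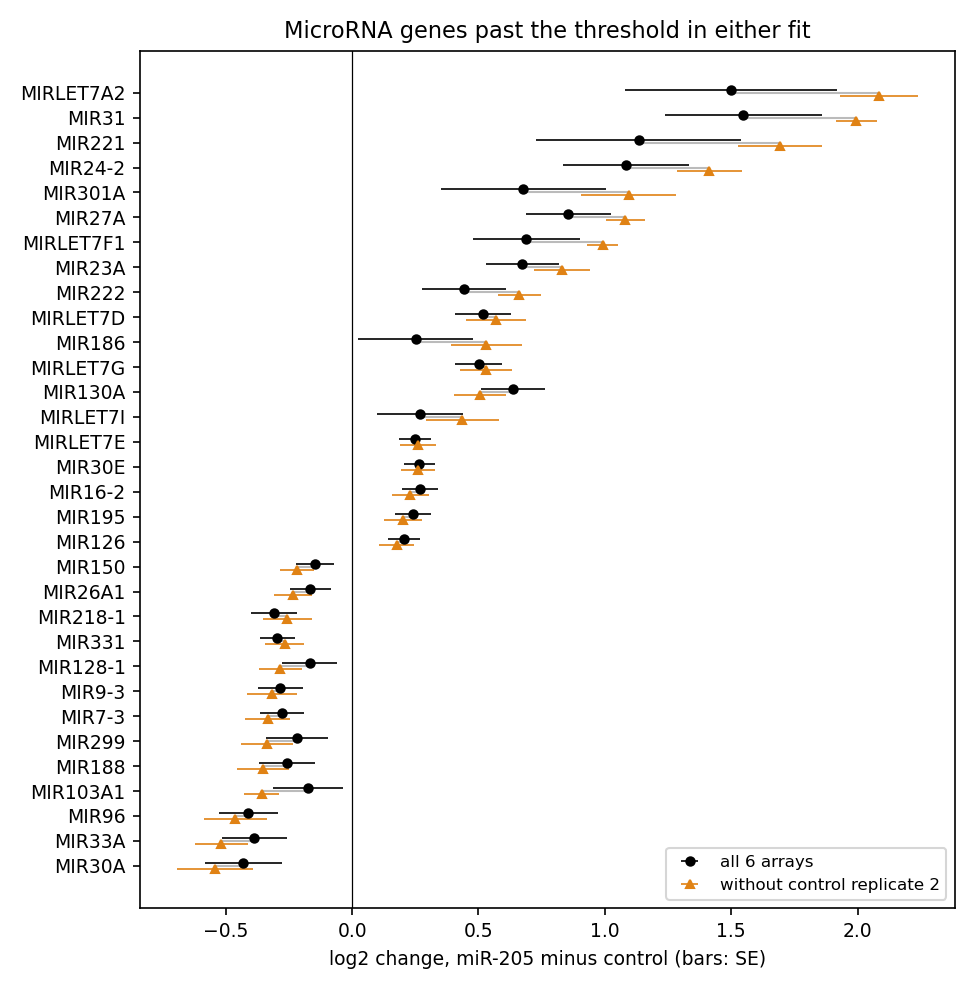
Log2 change, miR-205 minus control (horizontal axis, bars are SE), for the 32 microRNA genes past the threshold in either fit. Black points use all 6 arrays and orange triangles leave out negative control replicate 2, which leaves 2 control arrays. The triangles lie farther right for MIRLET7A2, MIR31, MIR221, MIR24-2 and MIR301A and differ little for MIRLET7G, MIRLET7D and MIR30E.

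The remaining higher genes lay below background, as did MIRLET7F1, MIRLET7G and MIRLET7E. MIR130A, a microRNA known from blood vessel growth, read 5.07, 5.29 and 5.08 (log2 intensity) with miR-205 and 4.50, 4.25 and 4.78 with the control. The groups did not overlap, and control replicate 2 was the lowest of the controls. The log2 change was 0.64 ± 0.13 (SE, limma adjusted p = 0.0066), or 0.51 (adjusted p = 0.00716) without control replicate 2, and the call held under every alternative run.

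MIR30E, of a family known for roles in epithelial and muscle differentiation, read 4.97, 4.96 and 4.94 against 4.77, 4.68 and 4.62. There was no overlap, and both groups were tight. It changed by 0.27 ± 0.06 (SE, limma adjusted p = 0.0122), again under every alternative run. MIR30A, with the same seed GUAAACA, had a log2 change of -0.43 (limma adjusted p = 0.0692). Its groups did not overlap, and with control replicate 2 left out it passed (-0.54, adjusted p = 0.0261).

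MIR16-2 and MIR195 share the seed AGCAGCA, of a family known to repress cyclins and BCL2. MIR16-2 changed by 0.27 (limma adjusted p = 0.0217) and MIR195 by 0.24 (adjusted p = 0.0354). All 5 measured genes with that seed had positive changes, from 0.03 to 0.27, and the other 3 did not pass. MIR126, a microRNA of endothelial cells, changed by 0.21 (limma adjusted p = 0.0412) from a control mean near 3.90. Its host EGFL7 changed by -0.10 and did not pass, and 1 of 3 endothelial markers, PECAM1, fell by 0.98, the others being dim. Their part in the MIR126 result was not tested. The MIR16-2 call was lost without miR-205 replicate 1 or 2 or control replicate 1 (adjusted p = 0.0833, 0.0717 and 0.0564). MIR195 was called without control replicate 1 but in no other fit that left out 1 array (adjusted p up to 0.12), and MIR126 only without control replicate 3 (up to 0.137). The MIR16-2, MIR195 and MIR126 calls were also lost in the fit over all probe sets. With a trended robust variance MIR195 and MIR126 were not called. MIR126 was not called with arrays centred on their medians or with array weights either.

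The 5 genes that were lower changed by -0.28 to -0.41 on the log2 scale. MIR96, of a family expressed in sensory cells and epithelia, read 3.67, 3.34 and 3.59 with miR-205 and 4.17, 3.83 and 3.82 with the control. Every miR-205 array was below every control array, and control replicate 1 was the highest. The change was -0.41 ± 0.12 (SE, limma adjusted p = 0.0299), lost without miR-205 replicate 2 or 3 or control replicate 1 (adjusted p = 0.102, 0.0632 and 0.0818). The MIR96 call was also lost in the fit over all probe sets. MIR182, its neighbour at a span of 4387 bases, had a log2 change of -0.19 (limma adjusted p = 0.0598).

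MIR331 read 5.24, 5.17 and 5.36 with miR-205 and 5.56, 5.61 and 5.49 with the control. No array overlapped the other group, and the change was -0.30 ± 0.07 (SE, limma adjusted p = 0.0137). The call was lost without miR-205 replicate 1 (0.051) or 2 (0.0621). MIR218-1, which lies inside the guidance gene SLIT2, changed by -0.31 (limma adjusted p = 0.0375). That call held with miR-205 replicate 3 left out but with no other single array left out (adjusted p up to 0.111). It was also lost in the fit over all probe sets.

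MIR7-3 was the only lower gene above background, where 1 of 52 was called lower. It makes miR-7, a microRNA of endocrine and nerve cells that represses EGFR. Its probe set read 6.50, 6.27 and 6.24 with miR-205 and 6.65, 6.51 and 6.70 with the control. The groups did not overlap, but miR-205 replicate 1 and control replicate 2 almost met. The change was -0.28 (limma adjusted p = 0.0442), lost without miR-205 replicate 2 or 3 or control replicate 1 or 3 (adjusted p = 0.115 to 0.146). That call was also lost in the fit over all probe sets. MIR7-2, another copy, changed by 0.0035 and did not pass. MIR9-3, a microRNA gene of the nervous system, also had a log2 change of -0.28 (limma adjusted p = 0.0478). It was not called without miR-205 replicate 1, 2 or 3 or control replicate 1 (adjusted p = 0.0932 to 0.136). With a trended robust variance and in the fit over all probe sets MIR9-3 was not called either. Its copy MIR9-1 changed by 0.24 and did not pass. A probe set shared by MIR9-2HG and the copy MIR9-2 rose by 1.82 (limma over all probe sets, adjusted p = 0.00256).

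The 10 microRNA probe sets with the highest signal were MIR21, MIRLET7A2, MIR221, MIR339, MIR326, MIR210, MIR222, MIRLET7I, MIR23A and MIR139. Probes differ in affinity, so this order is of signal and not of abundance. MIR21, which represses PDCD4 and is raised in many tumours, read 10.50, 10.51 and 10.06 (log2 intensity) with miR-205 and 10.42, 10.11 and 10.53 with the control. The groups overlapped fully, and the log2 change was 0.01 ± 0.14 (SE, limma adjusted p = 0.984). Its host VMP1, an autophagy gene, changed by -0.08 (adjusted p = 0.36).

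MIR210, the microRNA induced by hypoxia, read 8.64, 8.54 and 8.62 with miR-205 and 8.91, 8.44 and 8.69 with the control. The groups overlapped, and the log2 change was -0.08. MIR339 (-0.09), MIR326 (-0.08) and MIR139 (-0.05) did not pass either, and their groups overlapped.

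Of the gene lists for pathways and clusters, that of growth and RAS regulators had 6 of 27 measured genes higher and 0 lower, with a median log2 change of 0.05. The 22.2% called compare with 26.6% of all genes called and 12.6% called higher. The 6 were MIR27A, MIR31, MIR23A, MIR30E, MIR24-2 and MIR16-2, all described above. Of the polycistron MIR17HG and its paralogs, known as MYC-driven growth promoters, 6 of 15 genes were measured. These were MIR106A, MIR19B2, MIR92A2, MIR25, MIR106B and MIR93, all of the paralogs, so no gene of MIR17HG itself was read. Their changes lay between -0.04 and 0.08, and 0 passed in limma, with 0 at an unadjusted p under 0.05. Of the MIR200 family, which represses ZEB1 and ZEB2 and is grouped with miR-205 as an epithelial microRNA, 5 genes were measured and 0 passed. The largest change among them was -0.30 for MIR141 (adjusted p = 0.0751), the 1 gene with an unadjusted p under 0.05. MIR34A and MIR34B, of a family known to slow the cell cycle, changed by -0.12 and 0.03.

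The imprinted DLK1-DIO3 cluster on chromosome 14 had 16 genes measured, of which 14 were dim. Their changes lay between -0.22 and 0.24, and 0 passed in limma, with 2 at an unadjusted p under 0.05. Of the 4 HOX cluster genes and the 4 muscle genes measured, 0 passed, with 0 at an unadjusted p under 0.05. The placental C19MC cluster on chromosome 19 had 2 genes measured, with changes of -0.08 and -0.02.

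Of the 155 genes with a hairpin sequence, 65 formed 26 groups of neighbours within 10000 bases on the same strand. The other 18 genes, MIR183, MIR93 and MIR200A among them, were not placed in groups. In 7 of these groups at least 1 gene was called, and in 2 groups more than 1 was. Those were the MIR24-2, MIR27A and MIR23A cluster with 3 of 3 higher and the MIRLET7A1, MIRLET7F1 and MIRLET7D cluster with 2 of 3 higher. In the other 5 groups 1 gene was called and its neighbours did not pass.

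Of the 155 genes with a hairpin sequence, 108 lay inside a host gene on the same strand in the RefSeq table. The other 18 of the 173 genes were not searched for a host. Of the 108, 60 had a host measured on the array. The 60 pairs used 51 hosts, of which 8 were higher and 12 lower, while 26.6% of all genes and 33.8% of genes above background were called. Of the 8 pairs with a called microRNA gene, 1 pair was higher in both, 1 was lower in both, 1 was opposite, and in 5 the host did not pass. The pair higher in both was MIR30E with NFYC, a subunit of the NF-Y transcription factor, which changed by 0.31 (limma adjusted p = 0.00817). The pair lower in both was MIR218-1 with SLIT2, which changed by -0.44 (adjusted p = 0.00161).

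In 20 further pairs the host was called and the microRNA gene was not. The largest host change was -1.12 for TMEM245 (limma adjusted p = 2.28e-05), which read 9.89, 9.78 and 9.92 with miR-205 and 10.98, 10.94 and 11.02 with the control. All miR-205 arrays of TMEM245 lay below all control arrays. MIR32, inside TMEM245 and dim, changed by -0.21 and did not pass. Over the 60 pairs, the changes of microRNA gene and host had a Spearman rho of 0.26 and a Pearson r of 0.05. These are descriptions across genes that share the same arrays, with some hosts counted more than once.

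**Figure D4:**
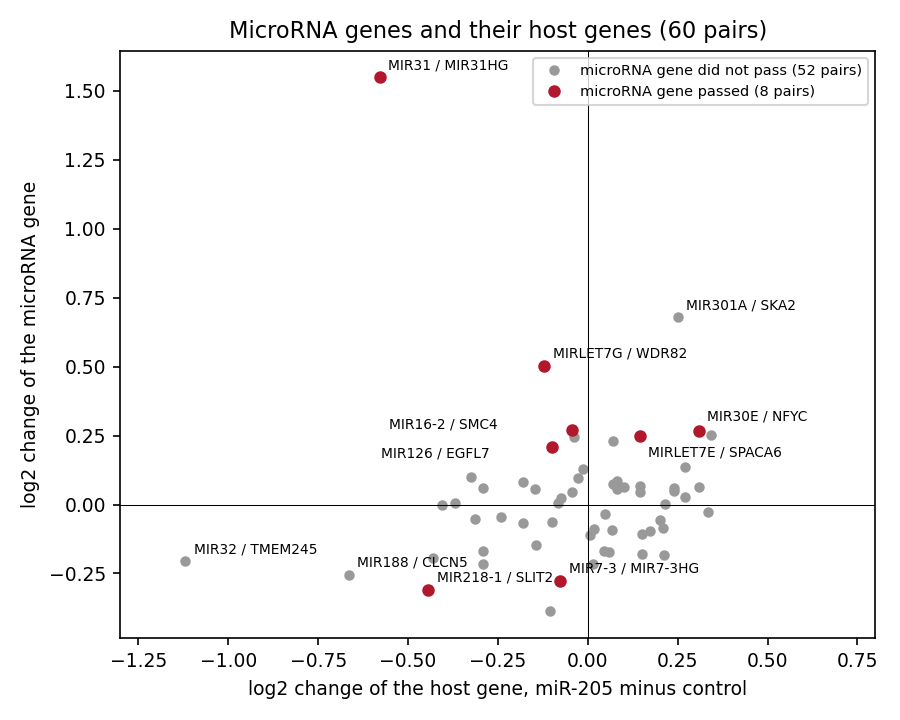
Log2 change of each microRNA gene (vertical axis) against that of its host gene on the same strand (horizontal axis), both miR-205 minus control, for 60 pairs. Red points mark the 8 pairs whose microRNA gene passed and grey points the 52 whose microRNA gene did not. MIR31 with MIR31HG lies alone at the upper left, at 1.55 for MIR31 and -0.58 for MIR31HG.

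Genes of microRNA maturation and of the silencing complex were mostly called in the lower direction where they passed. Of 25 measured, 7 were lower and 1 was higher, which is 32.0% called against 26.6% of all genes. Above background, where 24 of the 25 lay, 33.8% of all genes were called. By direction, 28% of the 25 were lower, against 14.0% of all genes and 18.0% of those above background. For higher these were 4% against 12.6% and 15.8%. Besides AGO2 itself (-0.73), AGO1 had a log2 change of -0.37 (limma adjusted p = 0.00371), AGO3 of -0.23 (0.0463) and AGO4 of -0.22 (0.0377). XPO5, which encodes exportin-5, had a change of -0.26 (adjusted p = 0.03), and TNRC6B and DICER1 were the other lower genes. PRKRA, which encodes the DICER1 partner PACT, was higher by 0.19 (adjusted p = 0.046). That call was lost with arrays centred on their medians, with cyclic loess normalization, with all probe sets tested and with the replicate number as a block. It was also lost in at least 1 fit that left out 1 array. DROSHA (-0.13, adjusted p = 0.176) and DGCR8 (0.03) did not pass. With any 1 array left out, 4 to 8 of these genes were lower and 0 to 1 higher, against 18.3% to 30.1% of all genes called. The lower count was 4 without miR-205 replicate 1, 2 or 3 or without control replicate 3.

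The signal of the microRNA probe sets went with the base composition of the hairpin. Over the 155 genes with a sequence, mean log2 intensity and hairpin GC content had a Spearman rho of 0.72 and a Pearson r of 0.68, a description across genes on the same arrays. Median GC content was 58.6% for genes above background and 45.4% for dim genes. The log2 change had a rho of -0.15 with GC content and the absolute change one of -0.04. The 14 higher genes had a median GC content of 50.9%, and the 4 lower genes with a sequence one of 46.0%. The hairpins had a median length of 85 bases, from 63 to 119.

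**Figure D5:**
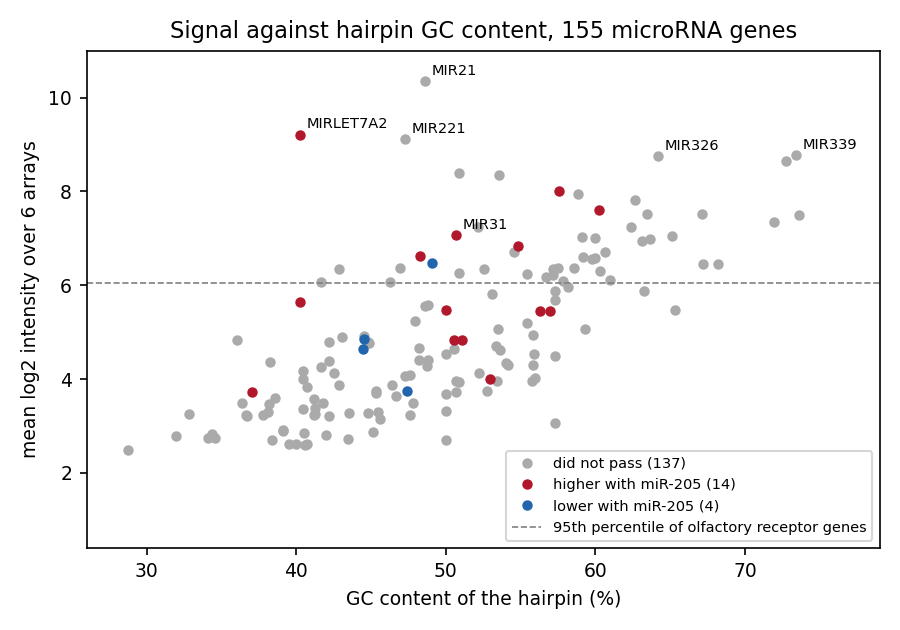
Mean log2 intensity over the 6 arrays (vertical axis) against hairpin GC content in percent (horizontal axis) for 155 microRNA genes with a RefSeq hairpin. Red points were higher and blue points lower with miR-205, grey points did not pass, and the dashed line is the background level of 6.04. Signal rises with GC content, and MIR21, MIRLET7A2 and MIR221 lie far above other genes of like GC content.

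The hairpins were searched on the transcribed strand for AUGAAGG, the complement of the miR-205 seed printed above. It was found in 2 of 155 member hairpins (1.29%), those of MIR103A1 and MIR204. Of the 1560 hairpins of the RefSeq table outside chromosome 8, which was left out, 5 held it (0.321%). The shifted site UGAAGGA, which overlaps AUGAAGG by all but its first letter, was found in 2 member hairpins, MIR101-1 and MIR204. It was found in 0.833% of the same 1560 hairpins. MIR103A1 (-0.17), MIR204 (0.02) and MIR101-1 (0.06) did not pass.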

How the data were processed

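Per the submitters' processing notes, the authors ran RMA in Affymetrix Expression Console 1.1.2, and the deposited log2 intensities entered the fits as given. The genome build behind the probe sets is not given in the sources used here. Of 33297 probe sets, 21214 were in the platform's probe table, 19460 with 1 symbol and 1754 with several. For each gene the probe set with the highest mean was taken, which left 18417 genes. A limma 3.58.1 model (lmFit, then eBayes, under R 4.3.3) held only the group term, its two-sided p-values were adjusted over all 18417 genes by Benjamini-Hochberg, and the steps were tested on simulated data. The number of arrays limits the precision. Named were called microRNA genes without overlap of the groups, the 10 brightest, members of gene lists, hosts and the 6 processing genes with the smallest p. Other names (PRKRA, AGO3, DROSHA, DGCR8, MIR301A, MIR32, genes passing only without control replicate 2, MIR182, MIR100, MIR30A, MIR7-2, MIR9-1 and the genes with a seed site) were chosen after their values were seen. The members and the lists were chosen with earlier results of these data known. Hairpin, host and neighbour data are from RefSeq (GRCh38.p14). Alternatives covered normalization, dim genes, probe set summary, variance model, array weights, replicate number and each array left out.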

Additional observations from a re-analysis of the deposited data

How the results depend on the processing

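Each of the 19 calls kept its sign under every alternative, and 6 kept their call as well (MIR130A, MIR23A, MIR27A, MIR30E, MIRLET7D and MIRLET7G). MicroRNA genes called higher, 14 over all arrays, numbered 7 among genes above background, 9 with all probe sets tested, 8 with a trended robust variance and 8 to 17 with 1 array left out. Those called lower, 5 over all arrays, numbered 1 among genes above background, 1 with all probe sets tested, 9 with the replicate number as a block and 0 to 12 with 1 array left out. Processing genes called higher, 1 over all arrays, were 0 with arrays centred on their medians, 0 with cyclic loess, 2 among genes above background, 0 with all probe sets tested, 0 with the block and 0 to 1 with 1 array left out. Processing genes called lower, 7 over all arrays, were 4 with all probe sets tested and 4 to 8 with 1 array left out. The median change of microRNA genes ran from -0.039 to 0.0055 with 1 array left out. In those fits 18.3% to 30.1% of all genes were called, against 26.6% over all arrays. For the other settings, the block among them, the share of all genes called is not given here. Their counts can therefore not be read as particular to these genes. Fewer genes were tested above background and more with all probe sets, and for the other settings the cause was not tested. Deviations of same-numbered arrays were weakly correlated (0.0626, 0.0912 and 0.0103 for replicates 1, 2 and 3), and those of the other pairs at -0.0855 to 0.0496. Control replicate 3 correlated best with miR-205 replicate 1 (0.0496). With that replicate block, 15 microRNA genes were higher and 9 lower, and all 19 calls were kept. Low signal over background limits the 121 dim genes.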

Other observations

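A further 32 probe sets name a microRNA beside at least 1 other symbol, and their signal cannot be given to 1 gene. In a limma fit over all probe sets, 4 of them were higher and 1 was lower with miR-205. The share of all probe sets called in that fit is not given here, and 26.6% of genes were called in the fit of single-symbol genes. The probe set of MIR9-2HG and MIR9-2, genes of the nervous system, read 6.17, 5.87 and 6.03 (log2 intensity) with miR-205 and 3.79, 4.57 and 4.25 with the control. The groups did not overlap, and its log2 change was 1.82 (adjusted p = 0.00256). Probe sets of MIR29B2CHG with MIR29C (0.83) and with MIR29B2 (0.55), whose microRNAs repress collagens, and of KRT18 with MIR622 (0.62) were also higher. The single-symbol probe set of KRT18 rose by 0.55. The probe set of DNM3OS with MIR199A2, a mesenchymal transcript, changed by -0.27.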
